A study of Arabidopsis thaliana with 8 samples.

Results

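The transcripts of DFR, BAN, CHIL and UGT80B1, genes of the route to the brown tannins of the seed coat, were followed in developing Arabidopsis thaliana seeds with and without the regulator TTG1. The genes were chosen as those probe sets whose platform annotation names 1 gene only, with the loci AT5G42800 (DFR), AT1G61720 (BAN), AT5G05270 (CHIL) and AT1G43620 (UGT80B1). Each gene had 1 such probe set, so 4 of the 13286 genes that were named in this way are described, within tests over 22746 probe sets. One group was the ttg1 mutant and the other was the wild-type accession Ler (Landsberg erecta), with 4 biological replicates of each on 1 Affymetrix ATH1 array per replicate. Seeds between the globular and walking-stick stages of the embryo had been taken out of the siliques. The labels name no ttg1 allele; a suffix from 6 to 9 stands in the source labels of both genotypes, and its meaning is not given there. They also do not say how plants or seeds were pooled. The p-values below thus measure the spread between these samples, which are labelled biological replicates, and how far that is a spread between plants is not known.

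Proanthocyanidins, or condensed tannins, are made in the innermost layer of the seed coat and turn brown as they oxidise; mutants that lack them have pale seeds, named transparent testa. Chalcone synthase and chalcone isomerase begin the flavonoid route, and CHIL, a chalcone isomerase-like protein without isomerase activity of its own, helps the first steps to make chalcone efficiently. DFR, dihydroflavonol 4-reductase, reduces dihydroflavonols to leucoanthocyanidins, which feed both anthocyanins and proanthocyanidins. BAN, anthocyanidin reductase, commits the route to proanthocyanidins by making their epicatechin units. UGT80B1, also known as TT15, adds glucose to sterols; it makes no flavonoid itself, but its mutants have pale seed coats. TTG1 is a WD40-repeat protein that works with the MYB protein TT2 and the bHLH protein TT8, and this complex is known to switch on the late genes of the route, DFR and BAN among them.

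All values are log2 values relative to the median of each probe set over the 8 arrays. The base 2 was taken from RMA, which gives log2 values, and was not tested on scanner files; the folds below rest on it. No level of a transcript can be read from them, so levels of different genes could not be compared and the distance of a signal from background or saturation is unknown. The centring also places the middle pair of the ordered values at equal distances from 0, which is why the highest ttg1 value and the lowest Ler value mirror each other in genes whose groups do not overlap. The array medians lay between -0.0126 and 0.0279. The array that departed most from its group was ttg1 replicate 4, with an SD of within-group deviations of 0.245, against 0.115 to 0.184 on the others. The tested tissue was whole seeds, in which fewer cells of a type and less RNA per cell cannot be told apart. TTG1 itself was not analysed here, so the mutated gene gave no check of the labels, and centred values cannot show whether a tissue marker is absent.

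The 4 genes responded to very different degrees. DFR and BAN, which act late, were lower in ttg1 by about 6 to 7 log2 units, CHIL, which acts early, by about 2 log2 units, and UGT80B1 by less than 1 log2 unit. UGT80B1, which makes no flavonoid itself, stands with DFR and BAN on the list of late proanthocyanidin genes, of which 3 of 9 were measured. CHIL was the 1 gene measured of 6 early flavonoid genes. Here and below, a gene counts as measured only if the platform annotation of a probe set names it alone. The other listed genes were not analysed, and whether the array carries them was not examined. The 2 flavonoid enzymes measured on the late list thus changed more than this 1 early gene, and early and late steps could not be compared as sets. In limma with Benjamini-Hochberg adjustment over all probe sets, DFR (adjusted p = 1.53e-10), BAN (8.14e-11) and CHIL (1.89e-06) fell, and UGT80B1 (0.0515) did not pass the threshold of 0.05. Quantile normalization of the centred values kept these falls but made them smaller, at 34.8-fold for DFR and 25.7-fold for BAN. It gives all arrays the same distribution, which draws in values at the ends of an array, where DFR and BAN lie. Which fold is nearer the true one was not tested. Thus 3 of the 4 genes were called lower, where 3.96% of all probe sets were called lower, 1.76% higher and 5.72% in either direction. The groups did not overlap in any of the 4 genes; that held in the lower direction for 8.33% of all probe sets and in either direction for 14.8%.

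**Figure D1:**
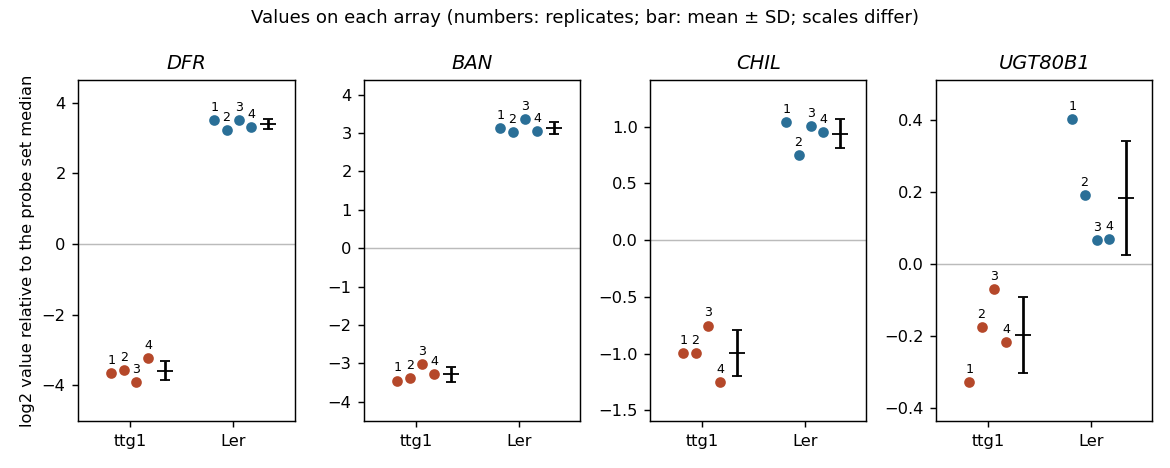
Log2 values of DFR, BAN, CHIL and UGT80B1 relative to the median of each probe set, for each of 4 ttg1 and 4 Ler arrays, numbered by replicate. Bars give the mean ± SD, the scales differ between panels, and in each panel all ttg1 values lie below all Ler values, with the narrowest gap, 0.137, in UGT80B1.

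DFR was measured at -3.66, -3.57, -3.90 and -3.24 on the ttg1 arrays and at 3.53, 3.24, 3.51 and 3.31 on the Ler arrays, each in the order of replicates 1 to 4. The Ler arrays lay within 0.291 of each other, while ttg1 spanned 0.666, from replicate 3 at the bottom to replicate 4 at the top. Between the lowest Ler array and the highest ttg1 array a gap of 6.47 remained. DFR averaged -3.59 ± 0.28 over the ttg1 arrays and 3.40 ± 0.15 over the Ler arrays (SD, n = 4). The log2 change was -6.99 (95% interval -7.29 to -6.69), so the signal was 127-fold lower, with limits of 103-fold and 156-fold. Over the 16 combinations of 1 ttg1 array with 1 Ler array, the fold ranged from 88.7 to 172.

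BAN was measured at -3.45, -3.39, -3.02 and -3.28 in ttg1 and at 3.13, 3.02, 3.37 and 3.04 in Ler, in the order of the replicates. Here ttg1 replicate 3, the lowest array for DFR, was the highest, and Ler replicate 3 stood above the other Ler arrays. BAN averaged -3.29 ± 0.19 over the ttg1 arrays and 3.14 ± 0.16 over the Ler arrays (SD, n = 4), and the groups were 6.04 apart at their nearest. The log2 change was -6.43 (95% interval -6.68 to -6.17), an 86.0-fold lower signal with limits of 72.0-fold and 103-fold. Any 1 ttg1 array against any 1 Ler array gave between 65.7-fold and 113-fold.

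CHIL was measured at -0.998, -0.995, -0.753 and -1.247 in ttg1 and at 1.043, 0.753, 1.001 and 0.954 in Ler, again by replicate. The array labelled ttg1 replicate 4, the highest for DFR, was the lowest for CHIL. The ttg1 arrays spanned 0.493 and the Ler arrays 0.290, and 1.51 separated the groups at their nearest. CHIL averaged -0.998 ± 0.201 over the ttg1 arrays and 0.938 ± 0.128 over the Ler arrays (SD, n = 4). The log2 change was -1.94 (95% interval -2.19 to -1.69), which is 3.83-fold, with limits of 3.22-fold and 4.55-fold. The fold ranged from 2.84 to 4.89 over the combinations of single arrays. The mutant thus kept 26.1% of the Ler signal of this early gene, against 0.788% for DFR and 1.16% for BAN.

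UGT80B1 was measured at -0.33, -0.17, -0.07 and -0.22 in ttg1 and at 0.40, 0.19, 0.07 and 0.07 in Ler. Ler replicate 1 was far above Ler replicates 3 and 4, and Ler replicate 3 was only 0.137 above ttg1 replicate 3. UGT80B1 averaged -0.20 ± 0.11 over the ttg1 arrays and 0.18 ± 0.16 over the Ler arrays (SD, n = 4). The log2 change of -0.38 ± 0.10 (SE; 95% interval -0.60 to -0.16) gave an unadjusted p of 0.00299 in limma, which adjustment raised to 0.0515. An unadjusted p under 0.05 was reached by 23.0% of all probe sets. The ttg1 signal was 76.8% of the Ler signal, with limits for the fold of 1.12 and 1.51.

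The call on UGT80B1 turned on the processing. It passed in limma with quantile normalization (log2 change -0.36, adjusted p = 0.0241), with each array centred on its median (-0.39, adjusted p = 0.0476) and with a storage protein mean as a covariate (-0.38, adjusted p = 0.0217). It did not pass in any of the 8 limma fits that left out 1 array, with log2 changes from -0.42 to -0.31 and adjusted p from 0.0570 to 0.143. The smallest of these changes came without Ler replicate 1, where the adjusted p was 0.129. In limma UGT80B1 also did not pass with the replicate block (adjusted p = 0.0702), robust eBayes (0.0511), array weights (0.0623) or unmoderated variances (0.119). Under 15 of 18 alternatives it stayed uncalled. The settings in which it passed also called more probe sets lower: 1201 with quantile normalization, 924 with array centring and 1860 with the covariate, against 900 in the main fit.

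Among all probe sets, ordered from the widest fall, DFR held place 4, BAN place 7, CHIL place 80 and UGT80B1 place 1569. Places on single arrays go by the value relative to each probe set's own median, so they show no level of a transcript. In this order, DFR ranked between place 2 and place 7 from the bottom in ttg1 and at place 5 or 6 from the top in Ler. BAN ranked between place 5 and place 9 from the bottom in ttg1 and between 6 and 10 from the top in Ler. CHIL lay between places 82 and 166 from the bottom in ttg1 and between 85 and 152 from the top in Ler. UGT80B1 had no extreme place, between 1704 and 5399 from the bottom in ttg1 and between 1313 and 5882 from the top in Ler.

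**Figure D2:**
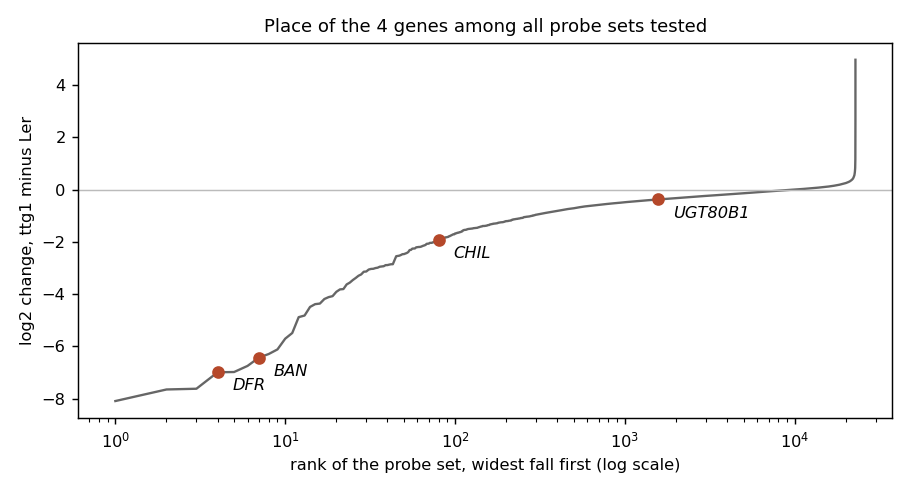
Log2 change, ttg1 minus Ler, of the probe sets tested, ordered from the widest fall on a log scale of ranks, with DFR, BAN, CHIL and UGT80B1 as points. DFR at place 4 and BAN at place 7 lie on the steep left end, CHIL at place 80 lies further along, and UGT80B1 at place 1569 lies where the curve nears 0.

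The order of response, DFR, BAN, CHIL and UGT80B1, was tested within arrays, by subtracting the value of one gene from that of the other on each array and comparing the genotypes. For all 6 pairs the ttg1 and Ler differences did not overlap, and the exact two-sided permutation test over 70 assignments gave p = 0.0286, the smallest it can give. Benjamini-Hochberg adjustment over the 6 pairs left the exact p at 0.0286. CHIL fell by 1.56 log2 units more than UGT80B1 (95% interval 1.23 to 1.96), a 2.94-fold larger response. BAN fell by 4.49 log2 units more than CHIL (95% interval 4.13 to 4.82), and DFR by 5.05 more than CHIL (95% interval 4.34 to 5.66). Against UGT80B1 the excess was 6.05 for BAN (95% interval 5.68 to 6.52) and 6.61 for DFR (95% interval 6.06 to 7.28). With quantile normalization the differences of response were smaller, at -3.05 for BAN minus CHIL, -3.49 for DFR minus CHIL, -4.32 for BAN minus UGT80B1, -4.76 for DFR minus UGT80B1 and -1.27 for CHIL minus UGT80B1, with the order kept.

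DFR and BAN, the neighbours at the top of this order, were much closer to each other. By replicate, DFR minus BAN was -0.20, -0.18, -0.88 and 0.05 on the ttg1 arrays and 0.39, 0.22, 0.15 and 0.26 on the Ler arrays. The nearest arrays of the 2 genotypes, ttg1 replicate 4 and Ler replicate 3, were 0.05 and 0.15, while ttg1 replicate 3 stood far below the rest. DFR fell by 0.56 log2 units more than BAN (95% interval 0.10 to 1.28), a 1.48-fold larger response. Without ttg1 replicate 3 this excess was 0.37. With any 1 Ler array left out the exact permutation test gave an adjusted p of 0.0571. This step of the order thus did not pass in those runs. The distance of either signal from background in ttg1 is unknown, and its part in this difference was not tested.

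**Figure D3:**
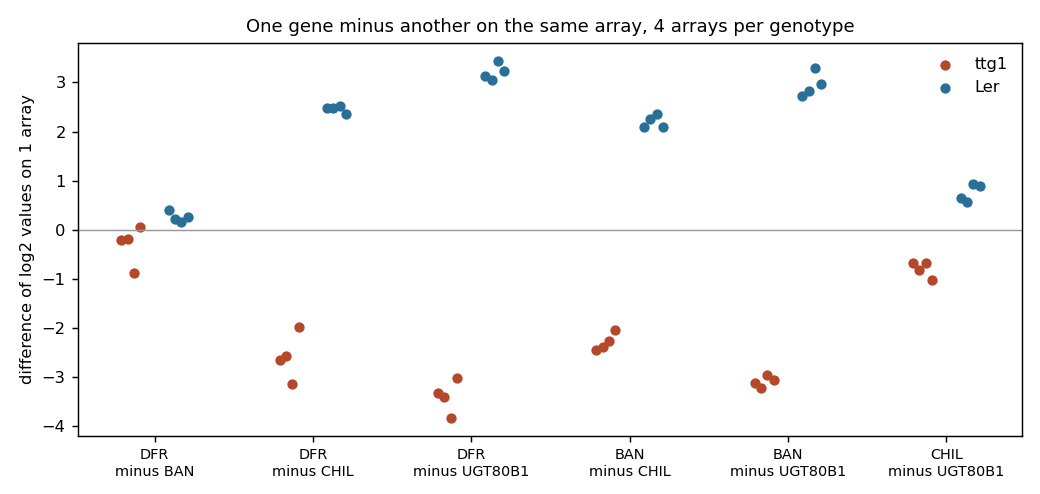
Value of one gene minus value of another on the same array in log2 units, for the 6 pairs of the 4 genes, with 4 ttg1 and 4 Ler arrays each. The genotypes are far apart in every pair except DFR minus BAN, where ttg1 reaches 0.05 and Ler begins at 0.15.

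Within a genotype the 4 genes deviated in different directions on the same array. In ttg1, replicate 4 was 0.36 above the genotype mean for DFR, within 0.004 of it for BAN and 0.25 below it for CHIL. In ttg1 replicate 3, BAN was 0.27, CHIL 0.24 and UGT80B1 0.13 above the genotype mean, while DFR was 0.31 below it. Ler replicate 2 was below the mean for DFR (-0.16), BAN (-0.12) and CHIL (-0.18) and at 0.01 for UGT80B1. The SD pooled over both genotypes was 0.220 for DFR, 0.176 for BAN, 0.169 for CHIL and 0.134 for UGT80B1, where the median probe set had 0.152.

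The mean of 3 storage protein genes, which rise as the embryo fills with reserves, varied widely in both genotypes. It was -0.65, 0.02, -0.20 and 1.45 in ttg1 and -0.84, -0.08, 0.29 and 1.29 in Ler, highest in replicate 4 of both. The genotype means, 0.15 ± 0.91 and 0.16 ± 0.89 (SD, n = 4), were close. VCL, 1 of the 3 genes, did not follow the mean in Ler, where it was highest in replicate 2 (0.46, against 0.15 in replicate 4). In ttg1 it was highest in replicate 4 (0.52). With both replicate 4 arrays left out, the log2 changes were -7.14 for DFR, -6.46 for BAN, -1.85 for CHIL and -0.41 for UGT80B1. With the storage protein mean as a covariate they were -6.99, -6.43, -1.94 and -0.38, as large as without it.

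**Figure D4:**
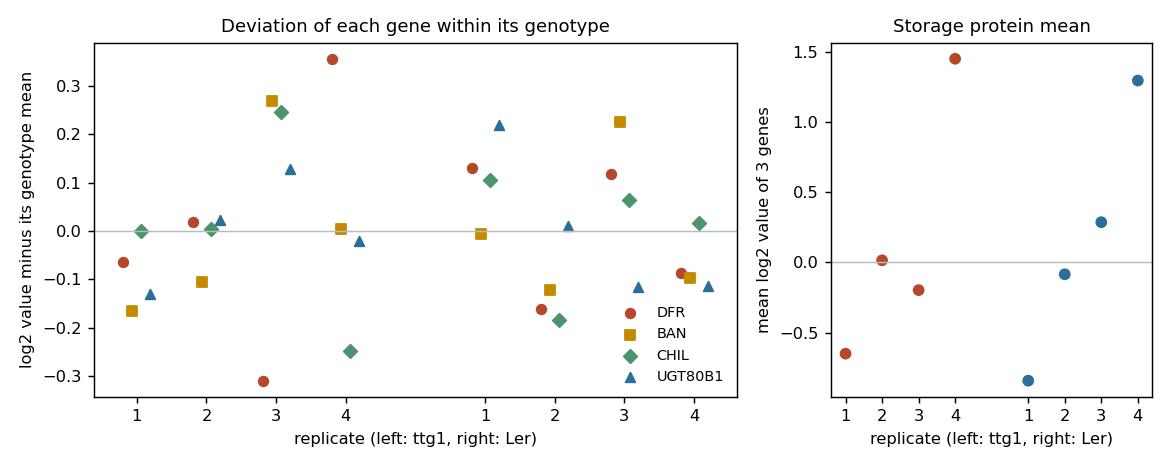
Left, deviation of DFR, BAN, CHIL and UGT80B1 from their genotype mean in log2 units on each of the 8 arrays; right, mean log2 value of 3 storage protein genes on the same arrays. The storage protein mean is highest in replicate 4 of both genotypes (1.45 and 1.29), while in ttg1 replicate 4 DFR lies 0.36 above and CHIL 0.25 below the genotype mean.

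Besides DFR, BAN and CHIL, no gene of the pathway lists with a probe set that names it alone was called in limma. The platform annotation gave no gene for 8730 probe sets and several for 503. Listed genes on such probe sets were not analysed, so their response is unknown here. The 8 pathway lists hold 77 genes, of which 14 were measured by name and 10 besides DFR, BAN, CHIL and UGT80B1. Of these 10, 0 were called in either direction in limma, where 5.72% of all probe sets were called. Groups without overlap were found in 0, where 14.8% of all probe sets had them. An unadjusted p under 0.05 in limma was reached by 1, UGT75C1, where 23.0% of all probe sets reached it. With 10 genes, 0 calls is near the share over all probe sets. Their log2 changes were below 0 in 4 and above 0 in 6. None of the 10 had a 95% interval that reached a 2-fold fall, and the lowest bound was -0.67.

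Genes that decorate flavonols and anthocyanins share precursors with the tannin route, and 7 of 9 were measured, with a median log2 change of 0.02 against 0.03 for all probe sets. UGT78D2, which adds glucose to flavonols and anthocyanidins and so competes with BAN for the product of the step before it, had a log2 change of 0.07 ± 0.17 (SE; 95% interval -0.31 to 0.45). UGT75C1 (AT4G14090), an anthocyanin 5-O-glucosyltransferase, had -0.35 ± 0.15 (adjusted p = 0.192 in limma), with -0.19, -0.52, -0.21 and 0.12 in ttg1 and 0.15, 0.43, 0.12 and -0.12 in Ler. In this gene the replicate 4 arrays ran against the others, and the groups overlapped. UGT79B1 (named UF3GT in RefSeq), which extends the sugar chain of anthocyanins, had 0.02 ± 0.14, and its sign turned to -0.01 with quantile normalization. 5MAT, a malonyltransferase of anthocyanins, had -0.16 ± 0.09. The flavonol glycosyltransferase genes UGT78D1, UGT78D3 and UGT89C1 had -0.20 ± 0.12, 0.02 ± 0.10 and 0.38 ± 0.39. UGT89C1 varied most, from -0.85 in Ler replicate 1 to 1.25 in ttg1 replicate 4.

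**Figure D5:**
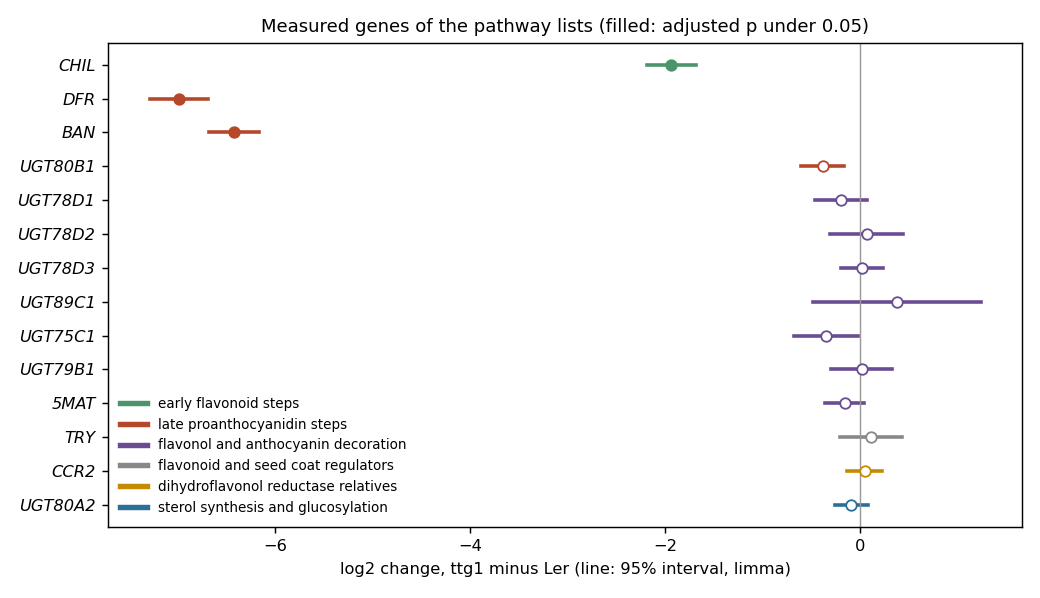
Log2 change, ttg1 minus Ler, with 95% intervals from limma for the 14 measured genes of the pathway lists, coloured by list and filled where the adjusted p was under 0.05. CHIL (-1.94), DFR (-6.99) and BAN (-6.43) are the filled points, and the other 11 intervals lie above -1.

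Relatives by protein family were few. CCR2, a cinnamoyl-CoA reductase of lignin synthesis in the same reductase family as DFR and BAN, had a log2 change of 0.05 ± 0.08 (95% interval -0.13 to 0.23). UGT80A2 (named SGT in RefSeq), the other steryl glucosyltransferase, had -0.09 ± 0.08 (95% interval -0.25 to 0.08), with values from -0.17 to 0.004 in ttg1 and from -0.004 to 0.08 in Ler. UGT80B1 minus UGT80A2 lay between -0.33 and -0.05 in ttg1 and between 0.04 and 0.37 in Ler. UGT80B1 was thus lower by 0.29 log2 units relative to UGT80A2 (95% interval 0.09 to 0.70, exact two-sided permutation test, p = 0.0286, the smallest possible); this comparison was chosen after the values were seen. TRY, a small MYB protein that inhibits trichome formation and the only regulator of 23 measured by name, had a log2 change of 0.11 ± 0.14. None of the 8 phenylpropanoid entry genes, and besides CHIL none of the other genes of the early list or of the chalcone isomerase family list, was analysed here.

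Mucilage is another product of the seed coat that is known to need TTG1. Of 7 measured genes of its list, 4 fell and 0 rose, where 3.96% of all probe sets were called lower and 1.76% higher, and the median log2 change was -0.43 against 0.03 for all probe sets. RRT1 (AT5G15740), a rhamnosyltransferase of pectin synthesis, changed by -2.39 ± 0.13 and PRX36 (AT3G50990), a peroxidase, by -1.39 ± 0.19, so that CHIL lay between them. UUAT1 and MUCI21, of mucilage polysaccharide synthesis, changed by -0.76 ± 0.12 and -0.43 ± 0.10, the latter with an adjusted p of 0.0337 in limma that ranged from 0.0210 to 0.115 when 1 array was left out. The mean of the 7 genes ranged from -0.57 to -0.29 in ttg1 and from 0.20 to 0.45 in Ler, and its part in the changes of the tannin genes was not tested. SBT1.7 and MUCI10 had -0.11 ± 0.11 and 0.09 ± 0.09.

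Markers of other seed tissues, and of the silique wall from which the seeds had been removed, gave no call when the 8 arrays were compared by genotype alone. Of the storage protein, silique wall and endosperm lists, 3 of 10, 4 of 9 and 2 of 7 genes were measured, and 0 were called in limma. Over all probe sets 5.72% were called, so 0 calls among so few genes is near that share. In YAB3 all ttg1 values lay above all Ler values. Groups without overlap in either direction were found in 14.8% of all probe sets. VCL and VCL2, both vicilin-like, had log2 changes of -0.23 ± 0.19 and 0.21 ± 0.59. YAB3, of the silique wall, had 0.67 ± 0.23 (adjusted p = 0.116) and ALC -0.47 ± 0.21 (adjusted p = 0.215), and IKU2 and AGL62, of the endosperm, had 0.23 ± 0.12 and -0.01 ± 0.09. The other genes of the silique wall list, LHCB4.1 and RCA, act in photosynthesis, which is not particular to the wall. They had 0.43 ± 0.20 and 0.17 ± 0.17, so that 3 of the 4 listed genes were above 0 and the median of the list was 0.30. In limma YAB3 passed with the replicate block (adjusted p = 0.0227) and the storage protein covariate (0.00249), LHCB4.1 likewise (0.0366 and 0.0128), and ALC without ttg1 replicate 3 (0.0498). Over all probe sets, 687 were called higher with the replicate block and 1372 with the covariate, against 400 in the main fit. The covariate was chosen after seeing the data. LHCB4.1 and RCA were named after their values were seen. The mean of the silique wall list ranged from -0.29 to 0.46 in ttg1 and from -0.18 to 0.05 in Ler, and that of the endosperm list from -0.12 to 0.27 and from -0.02 to 0.04. ttg1 replicate 4 was the highest ttg1 array in all 3 marker means, and the part of these marker genes in the changes was not tested.

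The profile over the 8 arrays was compared between probe sets by the root mean square (RMS) difference of their log2 values, as a description with no test. Among probe sets with 1 gene, DFR and BAN were nearest to each other, at 0.379. Among all probe sets, 1 without a single gene name was nearer to DFR (0.192), and 3 were nearer to BAN, of which the nearest lay at 0.232. DFR was next nearest to AT1G62070 (0.592) and AT2G38900 (0.607), and BAN to AT5G60630 (0.474) and AT1G62070 (0.524). These genes had log2 changes of -6.74, -8.09 and -5.70 for AT1G62070, AT2G38900 and AT5G60630. CHIL had a more crowded vicinity, led by AT4G25870 (0.157), GSTU26 (0.177), a glutathione transferase, and AT1G34580 (0.195). Within an RMS difference of 0.5 lay 88 named probe sets for CHIL, against 1 for DFR and 2 for BAN; over all probe sets the counts were 169, 4 and 6. UGT80B1 was nearest to AT1G75050 (0.0698), AT1G32630 (0.0704) and AT4G09500 (0.0720), but 12912 named probe sets lay within 0.5 of it.

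For each of the 4 loci, the nearest gene on either side that was measured by name was taken, with between 0 and 6 other genes lying in between. Of these 8 genes 1 was called, where 5.72% of all probe sets were, and 3 had groups without overlap (CYP79A2, AT5G05310 and AT1G61730), where 14.8% of all probe sets did. CYP79A2 (AT5G05260), a cytochrome P450 that acts on phenylalanine in glucosinolate synthesis and is separated from CHIL by 1 gene, fell by 0.52 ± 0.09 on the log2 scale (adjusted p = 0.00703 in limma). CYP79A2 was at -0.30, -0.47, -0.12 and -0.35 on the ttg1 arrays and at 0.12, 0.23, 0.28 and 0.21 on the Ler arrays, and it passed in each of the 8 limma fits that left out 1 array (adjusted p from 0.00526 to 0.0321). On the other side of CHIL, AT5G05310, with 4 genes in between, had 0.17 ± 0.07. BAN lies directly between AT1G61710 and AT1G61730, which had log2 changes of 0.12 ± 0.10 and -0.15 ± 0.08. AT5G42765 and U2AF35B, separated from DFR by 5 genes and 1 gene, had 0.05 ± 0.13 and -0.38 ± 0.13 (adjusted p = 0.113 for the latter in limma), and AT1G43590 and AT1G43630, separated from UGT80B1 by 6 and 0 genes, had -0.22 ± 0.11 and 0.12 ± 0.10.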

How the data were processed

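RNA of 8 seed samples had been hybridised to Affymetrix ATH1 arrays. The authors made the deposited log2 values with RMA, per the submitters' processing notes, which give no version; software and chip definition are not given in the sources used here. Each probe set has a median of 0 within 5e-07, so the values had been centred, which no source describes; that a higher value means more signal was not tested on scanner files. Of 22810 probe sets, 64 controls were left out. The platform annotation gave 1 gene for 13513 probe sets, several for 503 and none for 8730; 13436 matched the RefSeq table of TAIR10.1. Its coordinates are not printed, since the files name no build, and no gene, promoter or protein sequences were used here.

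The difference ttg1 minus Ler was fitted with limma 3.58.1 in R 4.3.3 (lmFit, eBayes, two-sided, no covariates) with Benjamini-Hochberg adjustment across all 22746 probe sets and a threshold of 0.05. The error given with a log2 change is the moderated standard error. Pairs of genes were compared by exact two-sided permutation over 70 assignments, with 95% intervals by inversion of that test. Simulated data had 22746 independent probe sets with normal noise of the residual SD of the real ones. On these, limma recovered 15 of 50 falls of 0.5 log2 units, 43 of 50 of 1 and 50 of 50 of 2. It called 9 of 22546 unchanged probe sets. Real probe sets can vary together, and 5.72% of them were called, so these rates may not hold for the real data.

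The genes, the 12 gene lists (analysed by locus) and the tests were chosen with earlier results of these data known. Named were the 4 genes, every measured gene of the 8 pathway lists, of the 4 marker lists the called genes and up to 2 others with the smallest p, the 3 nearest profiles by RMS difference, and the nearest named neighbours. Alternatives were quantile normalization, the replicate number as a block, array centring, robust eBayes, array weights, unmoderated variances, a threshold of 0.01 and omission of each array. A storage protein covariate and the omission of both replicate 4 arrays, or of ttg1 replicates 1 and 4, were chosen after seeing the data. A filter on dim probe sets needs levels and was not run. Same-numbered arrays correlated at 0.08, 0.03, -0.31 and 0.48 in their deviations from the group means, so the numbers were not taken to pair samples. The number of arrays limits the precision.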

Additional observations from a re-analysis of the deposited data

Results flagged for a closer look

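An array far from the other 3 of its group was found in 6 of 60 combinations of a gene and a genotype; chance gives about 1 in 20. DFR, BAN, CHIL and UGT80B1 had none. In ttg1 replicate 4, SBT1.7 was at -0.35 where the nearest of the other arrays was at -0.01, VCL was at 0.52 (nearest -0.26) and YAB3 at 0.98 (nearest 0.17). In ttg1 replicate 2, UGT79B1 was at -0.38 (nearest 0.06) and MUCI10 at 0.23 (nearest 0.02). In Ler replicate 2, MUCI21 was at 0.35 (nearest 0.10).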

How the results depend on the processing

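DFR, BAN and CHIL stayed lower and past 0.05 (and 0.01) in limma under all 18 alternatives each, with log2 changes from -7.14 to -5.12, -6.52 to -4.68 and -2.02 to -1.64; the ends nearest 0 came with quantile normalization, under which DFR was 34.8-fold and BAN 25.7-fold lower. Without 1 array the ranges were -7.11 to -6.88, -6.52 to -6.35 and -2.02 to -1.85. UGT80B1 passed with quantile normalization (-0.36), array centring (-0.39) and the storage protein covariate (-0.38); adjusted p ran from 0.0217 to 0.203, and without 1 array its change ran from -0.42 to -0.31. Of all probe sets, 400 were called higher and 900 lower. The higher count was 687 with the replicate block, 786 with array weights, 168 with unmoderated variances, 1372 with the storage protein covariate and 112 at a threshold of 0.01; the lower count was 409 with unmoderated variances, 1860 with the covariate and 414 at 0.01. Without 1 array they ran from 164 to 401 and from 509 to 854. The higher count fell over 1.5 times, to 233, 164 and 190, and the lower to 535, 509 and 548, without Ler replicate 1, 2 or 3. The cause was not tested.

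The replicate block changed no call on the 4 genes (adjusted p for UGT80B1 0.0702 in limma). Permutation within replicate numbers (replicate block) left the pair differences at -0.56 for DFR minus BAN, -5.05 for DFR minus CHIL, -6.61 for DFR minus UGT80B1, -4.49 for BAN minus CHIL, -6.05 for BAN minus UGT80B1 and -1.56 for CHIL minus UGT80B1, with an exact p of 0.125, the smallest it allows. Without 1 array, DFR minus BAN ran from -0.68 to -0.37; in 4 of 8 runs, those without a Ler array, the exact adjusted p was 0.0571. The other 5 differences passed the permutation test in all 8 runs. Signal over background is unknown here, so the depth of the fall in DFR and BAN has no check against a floor.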
